A study of Homo sapiens with 14 samples.

Results

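KLF4 sites were examined at the promoters of stand-alone long non-coding RNA (lncRNA) genes, meaning lncRNA genes that do not lie beside the start of a protein-coding gene. A member was any GENCODE lncRNA gene of chromosomes 1 to 22 and X whose transcription start site (TSS, the 5′ end of the gene record) had no protein-coding gene TSS within 5 kb, and its region reached 1 kb to either side of the TSS. Of 62062 annotated genes, 18756 were lncRNA genes and 14454 of these were members. The other 4302 lncRNA genes had a protein-coding TSS within 5 kb, and together with 19970 protein-coding genes they served as comparators.

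KLF4 ChIP-seq was performed in BEAS-2B, an established line of immortalised human bronchial epithelial cells, either wild type (WT) or with Nrf2 knocked out by CRISPR-Cas9 (Nrf2 KO). Cells of either genotype were left untreated (control) or exposed to 1 µM trivalent arsenic (As3+) for 6 h, which gives 4 KLF4 libraries, 1 per condition. The labels list a single input library for the KLF4 experiment, whose title names BEAS-2B and neither a knockout nor a treatment. With 1 library per condition no difference between conditions had a replicate check, no p-value was computed, and intervals are exact Clopper-Pearson 95% intervals that cover counting error only. Genotype or treatment, and anything else that set 1 library apart from the next, cannot be told apart.

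KLF4 is a zinc-finger transcription factor that binds GC-rich and CACCC-type DNA and takes part in epithelial differentiation and in the maintenance of pluripotent cells. Nrf2 is the transcription factor that turns on antioxidant genes when cells meet arsenic or other electrophiles. lncRNAs are transcripts without a long reading frame: some are structural RNAs of nuclear bodies, some silence imprinted neighbours, and others mainly carry small RNAs in their introns or exons. Their starts are often less GC-rich than those of protein-coding genes, and many lncRNAs are transcribed at low levels and in few cell types. A KLF4 summit at such a start does not show that the lncRNA is transcribed, and no RNA values were analysed here.

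The sequences below are examples of the DNA under strong member peaks. Each is 200 bp of hg38 around the strongest KLF4 summit of a member in the list named, read on the plus strand. Capitals mark 5 short words searched on both strands: the KLF core (CCACACCC or CCACGCCC), the GC box (CCCCGCCCC), the AP-1 word (TGACTCA), the core of the antioxidant response element (ARE) that Nrf2 reads (TGACNNNGC, which overlaps the AP-1 word where TGACTCA is followed by GC), and a CG run (CGCGCG). LINC02298 and ENSG00000273069 are shown as the strongest member peaks of the WT As3+ list, and they hold none of the words. NEAT1 and MALAT1 are shown as the best known members with strong peaks, ENSG00000241596, LINC02352 and ENSG00000267095 for a KLF core, and ENSG00000260805, TMEM105 and ENSG00000274949 for an AP-1 word. Windows chosen for a word do not show how common it is, and each word was absent from most member windows. DST-AS1 held none of the words and is shown because it was the only member with a summit in all 4 lists, a choice made after its values were seen.
LINC02298 (WT As3+ list, chr14:105091646-105091845, none of the words): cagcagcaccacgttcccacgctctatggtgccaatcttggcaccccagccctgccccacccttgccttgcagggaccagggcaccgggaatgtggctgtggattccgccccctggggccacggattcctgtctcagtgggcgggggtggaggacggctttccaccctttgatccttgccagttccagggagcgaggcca
ENSG00000273069 (WT As3+ list, chr7:74606632-74606831, none of the words): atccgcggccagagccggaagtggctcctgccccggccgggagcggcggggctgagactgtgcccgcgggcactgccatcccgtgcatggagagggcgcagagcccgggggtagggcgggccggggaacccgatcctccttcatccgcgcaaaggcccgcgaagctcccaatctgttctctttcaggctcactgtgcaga
NEAT1 (WT As3+ list, chr11:65422271-65422470, 2 KLF cores and a CG run): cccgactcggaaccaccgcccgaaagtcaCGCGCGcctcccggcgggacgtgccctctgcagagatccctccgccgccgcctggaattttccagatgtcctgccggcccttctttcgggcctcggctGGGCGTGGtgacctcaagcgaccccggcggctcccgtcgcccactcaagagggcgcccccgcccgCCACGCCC
MALAT1 (WT As3+ list, chr11:65497462-65497661, ARE core and CG run): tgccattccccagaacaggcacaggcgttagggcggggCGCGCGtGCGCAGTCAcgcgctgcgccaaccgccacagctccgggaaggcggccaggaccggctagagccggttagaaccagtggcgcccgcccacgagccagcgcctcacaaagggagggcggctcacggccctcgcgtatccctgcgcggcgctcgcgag
ENSG00000267095 (WT As3+ list, chr17:60139866-60140065, KLF core): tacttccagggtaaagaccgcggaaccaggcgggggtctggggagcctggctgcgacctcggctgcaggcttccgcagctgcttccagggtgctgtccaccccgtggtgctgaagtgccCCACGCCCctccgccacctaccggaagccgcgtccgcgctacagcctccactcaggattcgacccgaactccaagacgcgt
LINC02352 (Nrf2 KO control list, chr15:31215515-31215714, KLF core): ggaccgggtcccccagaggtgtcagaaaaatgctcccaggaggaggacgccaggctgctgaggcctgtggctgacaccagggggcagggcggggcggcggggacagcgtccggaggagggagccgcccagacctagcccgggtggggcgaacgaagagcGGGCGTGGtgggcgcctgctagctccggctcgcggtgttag
ENSG00000241596 (Nrf2 KO control list, chr3:115658508-115658707, 2 KLF cores and a CG run): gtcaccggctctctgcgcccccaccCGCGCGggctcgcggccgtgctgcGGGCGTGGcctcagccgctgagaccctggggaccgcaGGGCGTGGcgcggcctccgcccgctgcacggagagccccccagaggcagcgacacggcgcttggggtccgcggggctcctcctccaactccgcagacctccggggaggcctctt
ENSG00000260805 (WT As3+ list, chr1:212558888-212559087, 2 GC boxes, AP-1 word and 2 CG runs): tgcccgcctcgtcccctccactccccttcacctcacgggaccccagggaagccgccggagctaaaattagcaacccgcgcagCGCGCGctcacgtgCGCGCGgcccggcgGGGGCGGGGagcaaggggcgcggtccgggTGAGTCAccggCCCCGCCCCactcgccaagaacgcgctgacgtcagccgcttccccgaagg
TMEM105 (WT As3+ list, chr17:81329606-81329805, AP-1 word and ARE core): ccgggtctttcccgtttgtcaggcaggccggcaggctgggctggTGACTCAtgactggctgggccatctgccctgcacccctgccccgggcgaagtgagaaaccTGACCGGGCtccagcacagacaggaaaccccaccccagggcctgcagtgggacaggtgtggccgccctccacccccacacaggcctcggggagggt
ENSG00000274949 (WT As3+ list, chr20:3811746-3811945, AP-1 word): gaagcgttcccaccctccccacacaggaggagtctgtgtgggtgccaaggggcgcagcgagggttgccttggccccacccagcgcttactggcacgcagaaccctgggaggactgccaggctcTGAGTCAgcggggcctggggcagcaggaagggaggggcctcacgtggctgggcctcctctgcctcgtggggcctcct
DST-AS1 (WT As3+ list, chr6:56844246-56844445, none of the words): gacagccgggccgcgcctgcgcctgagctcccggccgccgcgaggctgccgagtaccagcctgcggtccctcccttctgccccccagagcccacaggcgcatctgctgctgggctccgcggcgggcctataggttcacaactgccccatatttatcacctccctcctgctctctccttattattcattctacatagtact

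KLF4 summits lay at few stand-alone lncRNA promoters, and in each list at a smaller share of them than of protein-coding promoters. In the WT control list 37 of 14454 members held a summit, 0.256% (0.18 to 0.353), beside 0.338% of all 62062 gene TSSs. In the WT As3+ list 1141 members did, 7.89% (7.46 to 8.35), beside 21.4% of all TSSs. The Nrf2 KO control list marked 2127 members, 14.7% (14.1 to 15.3), beside 30.1% of all TSSs. The Nrf2 KO As3+ list marked 2 members, 0.0138% (0.00168 to 0.05), beside 0.079% of all TSSs. Protein-coding TSSs held a summit 2.5, 5.83, 4.07 and 12.7 times as often as members in these 4 lists in turn. The other lncRNAs were close to protein-coding genes: 49.5% of them held a summit in the WT As3+ list, against 46.0% of protein-coding TSSs, and 62.9% against 59.8% in the Nrf2 KO control list.

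**Figure D1:**
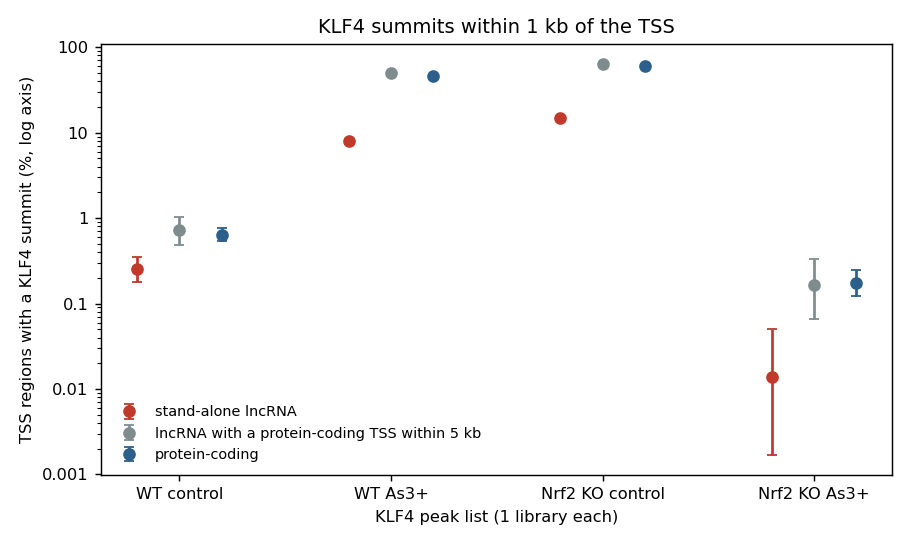
Percent of TSS regions with a KLF4 summit within 1 kb (log axis) in each of the 4 peak lists, for stand-alone lncRNAs (red), lncRNAs with a protein-coding TSS within 5 kb (grey) and protein-coding genes (blue). Points are shares and bars exact 95% intervals; stand-alone lncRNAs are lowest in each list, at 7.89% in WT As3+ and 14.7% in Nrf2 KO control.

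The lists themselves differ in length, and the members follow them. On the chromosomes counted, the lists held 751 (WT control), 29866 (WT As3+), 76521 (Nrf2 KO control) and 130 (Nrf2 KO As3+) peaks, of which 32, 1255, 2505 and 2 had their summit in a member region. These were 4.26%, 4.2%, 3.27% and 1.54% of each list, whereas 15.6%, 34.5%, 19.3% and 26.2% of each list lay at protein-coding TSSs. Depth is not given in the peak lists, but the fragments over each summit and the local background could be worked out from the listed fold and p. The lowest background at any peak was 1.9 and 1.64 fragments in the short lists (WT control and Nrf2 KO As3+) and 0.757 and 0.491 in the long ones (WT As3+ and Nrf2 KO control). The median number of fragments at a member's summit was 26 and 16.5 in the short lists and 12 and 8 in the long ones. The part of this background in the difference between lists was not tested.

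Comparing WT cells with and without As3+ asks where KLF4 sites appear on exposure. A summit was present with As3+ and absent without in 1108 members, 7.67% (7.24 to 8.11) of members against 21.0% of all TSSs. It was present only without As3+ in 4 members (0.0277%, against 0.0113% of all TSSs), and in both lists in 33 (0.228% against 0.327%). In Nrf2 KO cells the lists ran the other way: 2125 members had a summit in the control list and none with As3+, 14.7% (14.1 to 15.3) of members against 30.0% of all TSSs, and no member had the reverse. Between the untreated libraries, 2100 members had a summit in Nrf2 KO and none in WT, 14.5% against 29.8% of all TSSs. The reverse was seen in 10 members, 0.0692% against 0.0419% of all TSSs. Between the As3+ libraries, 1139 members had a summit in WT and none in Nrf2 KO, 7.88% against 21.3% of all TSSs. In each of the 4 comparisons the share of members in the commoner direction was below that of all TSSs. Summits of WT control that were missing from WT As3+ or from Nrf2 KO control had a higher share at members. Those rest on 4 and 10 members, and their intervals overlap those of all TSSs.

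Over the 4 lists 2395 members (16.6%) held a summit in at least 1 list and 12059 (83.4%) in none, whereas 32.7% of all TSSs and 64.4% of protein-coding TSSs held one in at least 1 list. The most common class was a summit in the Nrf2 KO control list alone, with 1250 members (8.65%, against 11.4% of all TSSs). Next came both WT As3+ and Nrf2 KO control with 849 (5.87% against 18.4%), and WT As3+ alone with 258 (1.78% against 2.57%). Protein-coding genes had the reverse order at the top, with 8164 (40.9%) in both long lists and 3653 (18.3%) in Nrf2 KO control alone. Of the 1141 members marked in WT As3+, 877 (76.9%, 74.3 to 79.3) were also marked in Nrf2 KO control, and these were 41.2% (39.1 to 43.4) of the 2127 marked there. The same shares for protein-coding TSSs were 90.2% and 69.4%, and for all TSSs 87.8% and 62.3%. In the 877 members the nearest summits of the lists were a median of 128 bp apart, with 43.2% within 100 bp and 8.89% more than 500 bp apart. Members marked in both lists had stronger peaks: their median −log10 p among WT As3+ peaks was 8.53, against 6.75 for the 264 members that Nrf2 KO control lacked. Among Nrf2 KO control peaks it was 8.42, against 6.21 for the 1250 members that WT As3+ lacked.

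DST-AS1, an antisense lncRNA inside the gene for the cytoskeletal linker dystonin, was the only member with a summit in all 4 lists. Its TSS lies at position 56843928 of chromosome 6, 110902 bp from the TSS of the DST gene record but 263 bp from the start of another DST transcript. The summit fell 372 bp downstream of its TSS in WT control, with a fold enrichment of 5.81 and 47 fragments. It fell 418 bp downstream in WT As3+ (17.7-fold, 61 fragments), 349 bp downstream in Nrf2 KO control (15.3-fold, 41 fragments) and 465 bp downstream in Nrf2 KO As3+ (3.67-fold, 17 fragments). Within its own list this peak ranked 49 of 751, 21 of 29866, 20 of 76521 and 115 of 130 in turn, so it stood near the top of both long lists and near the bottom of the shortest. Fold values are relative to each library's own background and are set side by side only.

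ENSG00000275672 was the other member with a summit in Nrf2 KO As3+. It is a lncRNA of 1 exon on chromosome 15, antisense inside GATM, the gene for an enzyme of creatine synthesis, and 43 bp from the start of a GATM transcript. Its peak ranked 42 of 130 in Nrf2 KO As3+, 3978 of 76521 in Nrf2 KO control and 26801 of 29866 in WT As3+, where only 6 fragments lay under the summit. No summit was listed for it in WT control. Both members of the Nrf2 KO As3+ list therefore lay beside a start of a protein-coding gene's transcript, though not beside its gene record's TSS.

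The 37 members of the WT control list were a small and mixed set. Their strongest peaks were at IGFL2-AS1 (chromosome 19), where the WT control peak ranked 37 of 751 with 44 fragments, DST-AS1, TMEM105, LINC02783 and ENSG00000267095. IGFL2-AS1, a lncRNA named as antisense to an insulin growth factor-like gene, had a summit 122 bp upstream of its TSS in WT control and 126 bp upstream in WT As3+, and none in either Nrf2 KO list. The other 5 members with this pattern had weaker peaks in WT control, among them ENSG00000287847, LINC02868 and LINC01186. The 4 members marked in WT control alone were ENSG00000289432, ENSG00000251076, ENSG00000259645 and ENSG00000270139, with 15 to 32 fragments under the summit. Shared starts make the set smaller than it looks, since 32 peaks gave the 37 members: the neighbours LINC00667, LINC00526 and ENSG00000265091 on chromosome 18, for example, counted the same peak. LINC02868, LINC01186, LINC00667, LINC00526 and the 5 clone-named genes beside them were named after their values were seen.

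In the WT As3+ list the strongest member peak was at LINC02298 on chromosome 14, ranking 14 of 29866 with a fold enrichment of 22.9 and 59 fragments. Its summit lay 991 bp upstream of the TSS, at the edge of the region, and 968 bp upstream in WT control, but in Nrf2 KO control the strongest summit was 159 bp downstream and ranked 17511 of 76521. ENSG00000273069, a lncRNA of 1 exon on chromosome 7 whose nearest protein-coding TSS is that of GTF2I at 43318 bp, came next at rank 15, and its peak ranked 23 in Nrf2 KO control and 117 in WT control. The other members of the 10 strongest were DST-AS1, ENSG00000274949, ENSG00000287847, ENSG00000290057, NEAT1, GASAL1, MALAT1 and ENSG00000290046. Of the members marked in WT As3+ alone the strongest were ENSG00000260805 (rank 609), whose start is 5603 bp from that of the stress-response gene ATF3, LINC01358 and LINC02709.

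The strongest members of the Nrf2 KO control list were DST-AS1, ENSG00000273069, LINC02352, ENSG00000241596 and EPC1-AS1. LINC02352, between genes on chromosome 15, had a peak of rank 49 in Nrf2 KO control (11.8-fold, 30 fragments) and 263 in WT As3+ (10.9-fold, 33 fragments), with summits 7 bp upstream and 38 bp downstream of its TSS. ENSG00000241596, inside the gene for the growth-cone protein GAP43, ranked 55 and 271 in the same lists, with summits 75 and 24 bp downstream. EPC1-AS1 differed more between the lists, with rank 70 in Nrf2 KO control and 6701 in WT As3+. It lies 179 bp from the start of an EPC1 transcript, and its peak was shared with the neighbouring lncRNA EPC1-AS2. The strongest members marked in Nrf2 KO control alone were MAST4-AS1 (rank 216), MIR3663HG (rank 486) and ENSG00000260132 (rank 1073). Of the 24 members named by rank or by list pattern, 8 had a CpG-rich start and 5 lay within 1 kb of the start of a transcript of a protein-coding gene.

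**Figure D2:**
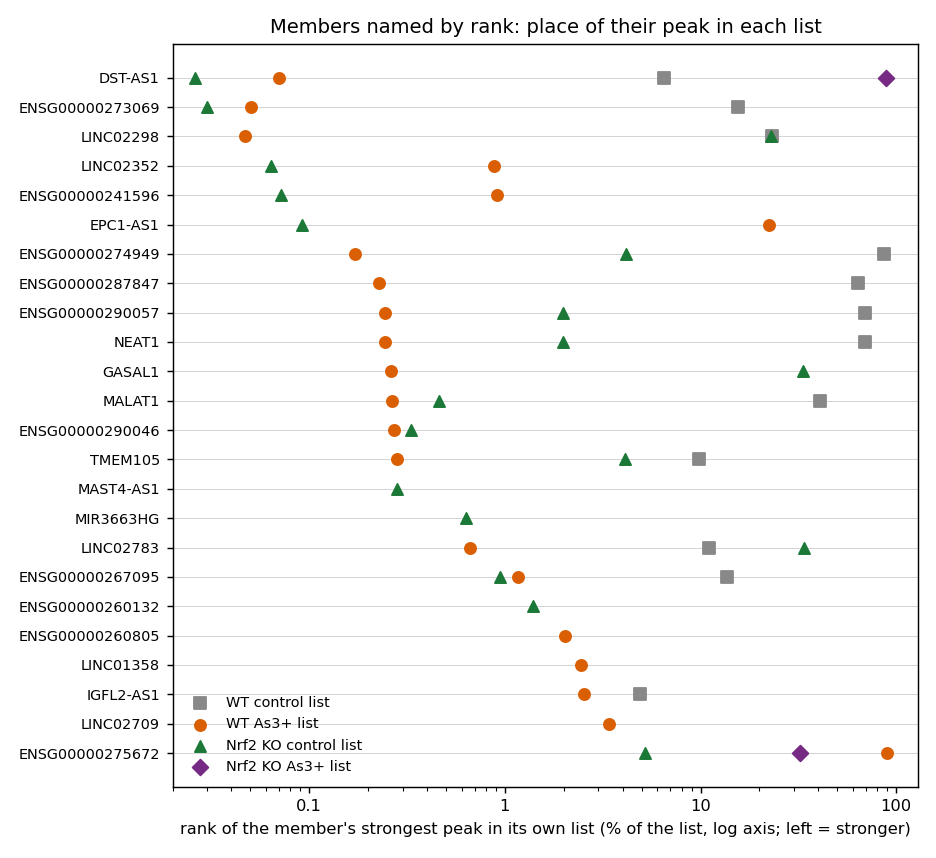
Rank of the strongest KLF4 peak of each member named by rank, as a percent of its own list (log axis, left is stronger), with 1 symbol per list in which the member had a summit. DST-AS1 has symbols in all 4 lists, at 6.52%, 0.0703%, 0.0261% and 88.5%, whereas members such as MAST4-AS1 have a symbol in Nrf2 KO control alone.

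Among well-known lncRNAs, MALAT1 and NEAT1 had summits in 3 of the 4 lists. Both are abundant RNAs kept in the nucleus, MALAT1 in nuclear speckles and NEAT1 as the scaffold of paraspeckles, and their genes lie side by side on chromosome 11. NEAT1 had 24 fragments at a summit 492 bp upstream of the TSS in WT control, 47 at 403 bp upstream in WT As3+ and 19 at 454 bp upstream in Nrf2 KO control. The ranks of this peak were 522 of 751, 73 of 29866 and 1509 of 76521, and it was shared with ENSG00000290057, whose TSS lies just upstream. MALAT1 had summits 100, 78 and 110 bp upstream of its TSS with 29, 46 and 23 fragments, at ranks 307, 79 and 351. For both genes the summits of the 3 lists thus lay within 100 bp of each other, and neither had a summit in Nrf2 KO As3+.

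A list of 120 lncRNAs drawn up from background knowledge, but with earlier results of these data known, was also followed. Its shares therefore describe the list only, since it was not chosen independently of the data. Of the 120, 111 are annotated as lncRNA genes under that name. Of these, 34 have a protein-coding TSS within 5 kb and 77 were members. A summit was present in 2 of the 77 in WT control, 29 (37.7%) in WT As3+, 36 (46.8%) in Nrf2 KO control and none in Nrf2 KO As3+, and 34 had no summit in any list. The shares in the long lists were above the 7.89% and 14.7% over all members and the 21.4% and 30.1% of all TSSs. They were below the 46.0% and 59.8% of protein-coding TSSs. The start region was CpG-rich in 30 of the 77. Within CpG-rich starts 70.0% (50.6 to 85.3) of the 30 listed members held a summit in WT As3+, against 45.2% (42.4 to 48.1) of the 1205 CpG-rich members not listed, and within other starts 17.0% (7.65 to 30.8) of 47 against 4.3% (3.96 to 4.67). In Nrf2 KO control the shares in CpG-rich starts were 76.7% (57.7 to 90.1) against 62.7% (59.9 to 65.4), with overlapping intervals. In other starts they were 27.7% (15.6 to 42.6) against 10.1% (9.63 to 10.7). Because the list was drawn up with earlier results known, no conclusion about listed against other members can be drawn from these differences.

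Of 13 members in the group of nuclear-body, imprinting and chromatin lncRNAs, 6 held a summit in WT As3+ and 6 in Nrf2 KO control. These were 46.2% in either list, beside 21.4% and 30.1% of all TSSs. Besides MALAT1 and NEAT1, summits were in both long lists at KCNQ1OT1, the antisense RNA that silences an imprinted cluster, NORAD, which binds Pumilio proteins, and PVT1, the neighbour of MYC. KCNQ1-AS1 was marked in WT As3+ alone and FTX in Nrf2 KO control alone. The imprinted H19, MEG3 and AIRN were among the 6 with no summit, with CHASERR, JPX and FIRRE.

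Hosts of small nucleolar RNAs (snoRNAs), whose introns carry guides of ribosomal RNA modification, numbered 14, of which 7 held a summit in WT As3+ and 6 in Nrf2 KO control. SNHG7 had the strongest of these peaks, of rank 158 in WT As3+ (12.1-fold, 39 fragments) and 3616 in Nrf2 KO control (7.12-fold, 15 fragments). DANCR and SNHG15 were also in both lists. SNHG8, SNHG12, SNHG25 and SNHG32 were in WT As3+ alone, with 10 to 15 fragments, and EPB41L4A-AS1, SNHG17 and SNHG29 in Nrf2 KO control alone. SNHG6, SNHG14, SNHG16 and SNHG30 had none.

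Of 26 microRNA hosts, 17 (65.4%) held a summit in Nrf2 KO control and 10 (38.5%) in WT As3+, and each of the 10 was also in Nrf2 KO control. The former list is the longer one, and all members (14.7% and 7.89%) and all TSSs (30.1% and 21.4%) had the same order. The strongest in WT As3+ were MIRLET7BHG, a host of let-7 microRNAs, with a rank of 232 and 30 fragments, MIRLET7A1HG at rank 970 and DLEU2 at rank 1176. MIR17HG, the host of a growth-promoting microRNA cluster, MIR210HG, induced in low oxygen, and MIR155HG, of immune cells, were also in both lists. MIR200CHG and MIR205HG, hosts of microRNAs typical of epithelial cells, were among the 7 in Nrf2 KO control alone, with MIR31HG, MIR193BHG, MIR503HG, MIR4435-2HG and MIR9-1HG. The 9 with no summit included MIR34AHG, host of a microRNA that p53 induces, and MIR222HG.

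Of 24 members in the group of lncRNAs studied in stress, airway epithelium or cancer, 6 held a summit in WT As3+ and 7 in Nrf2 KO control. These were 25.0% and 29.2%, close to the 21.4% and 30.1% of all TSSs. LINC01116 had the strongest peak in WT As3+, of rank 723 with 21 fragments and a summit 165 bp upstream of its TSS, against rank 15283 and 9 fragments in Nrf2 KO control. CASC15, DRAIC and LINC00941 were also in both lists, and BANCR and LINC00511 were in WT As3+ alone. LUCAT1, a lncRNA that Nrf2 is known to induce in airway cells exposed to smoke, had a summit only in the list of Nrf2 KO control, 465 bp upstream of the TSS with 7 fragments at rank 66455 of 76521. TRERNA1 and MIAT shared that pattern. The other 15, among them CYTOR, UCA1 and PURPL, had none.

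Members with a summit were far more often CpG-rich than members without. A start was called CpG-rich where the 500 bp around the TSS had at least 55% GC and a CpG observed/expected ratio of at least 0.65. Only 8.54% of members were CpG-rich, against 50.2% of the other lncRNAs and 53.3% of protein-coding TSSs. CpG-rich members held a summit in 45.8% (43.0 to 48.7) of 1235 cases in WT As3+ and 63.0% (60.2 to 65.7) in Nrf2 KO control, and the remaining 13219 in 4.35% (4.01 to 4.71) and 10.2% (9.69 to 10.7). Within each class members stayed below protein-coding TSSs, of which 68.6% and 83.3% held a summit where CpG-rich and 20.3% and 33.1% where not. Members marked in both long lists were CpG-rich in 57.2% (53.9 to 60.5), those in WT As3+ alone in 24.8% (19.7 to 30.5), those in Nrf2 KO control alone in 22.1% (19.8 to 24.5), and those in no list in 3.26% (2.95 to 3.59). In WT control 8 of 37 were CpG-rich, 21.6% (9.83 to 38.2), against 71.1% (62.4 to 78.8) of the 128 protein-coding TSSs marked there.

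**Figure D3:**
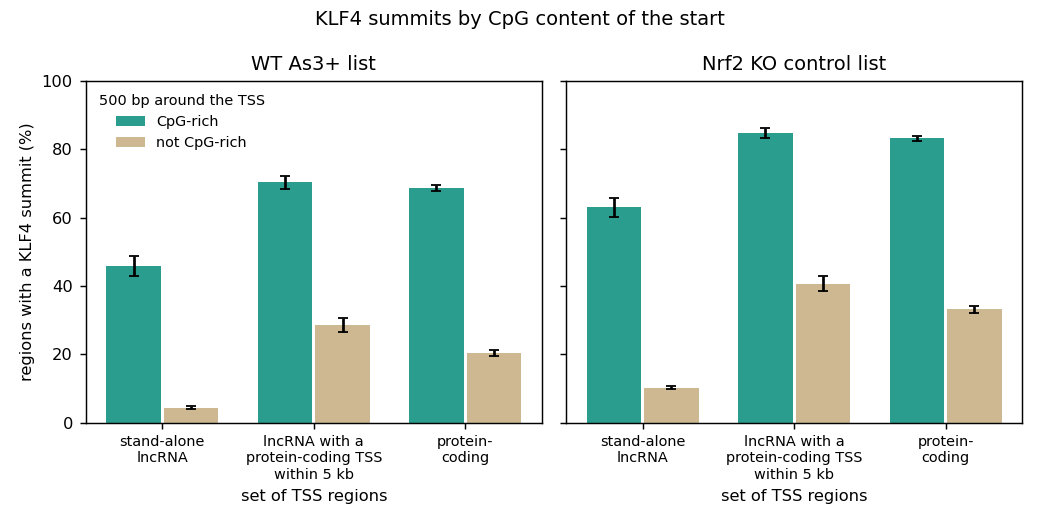
Percent of TSS regions with a KLF4 summit in the WT As3+ list (left) and the Nrf2 KO control list (right), for CpG-rich starts (green) and others (sand) of the 3 gene sets, with exact 95% intervals. CpG-rich members reach 45.8% and 63.0%, against 4.35% and 10.2% of the others.

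The words in the printed sequences were counted in all 200-bp windows around summits. At members in WT As3+ a KLF core was present in 9.64% (8.06 to 11.4) of 1255 windows, against 8.44% (7.91 to 8.99) of windows at protein-coding TSSs and 10.3% of all windows of the list, so the intervals overlap. In Nrf2 KO control the shares were 9.3% (8.19 to 10.5), 7.65% (7.23 to 8.09) and 9.27%, so the first 2 intervals lie just apart. In WT control the order was the other way, with 12.5% (3.51 to 29.0) of 32 member windows, 22.2% (15.1 to 30.8) at protein-coding TSSs and 26.5% of all windows. In the long lists the GC box and the CG run were less frequent at members than at protein-coding TSSs: 8.76% against 13.3% and 13.5% against 19.4% in WT As3+, and 6.79% against 11.2% and 10.4% against 17.9% in Nrf2 KO control. Over all windows of these lists the GC box was in 7.76% and 4.61% and the CG run in 10.9% and 6.74%. In WT control the GC box was in 12.5% (3.51 to 29.0) of member windows against 7.69% (3.58 to 14.1) at protein-coding TSSs, and the CG run in 9.38% (1.98 to 25.0) against 16.2% (10.1 to 24.2), with overlapping intervals for both words. The AP-1 word was more frequent at members, with 3.9% (2.9 to 5.13) against 1.79% (1.55 to 2.07) in WT As3+ and 2.87% (2.26 to 3.61) against 1.51% (1.32 to 1.72) in Nrf2 KO control, beside 4.33% and 2.54% of all windows. In WT control 7 of 32 member windows held it, 21.9% (9.28 to 40.0), against 5.13% (1.9 to 10.8) of 117 windows at protein-coding TSSs and 18.2% of all. The ARE core was in 9.56% and 9.78% of member windows of the long lists, against 9.02% and 8.56% at protein-coding TSSs and 9.37% and 9.17% of all windows, and in WT control in 25.0% (11.5 to 43.4) against 9.4% (4.79 to 16.2) and 12.8%. A match is a description of the letters, not a binding site.

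The words were also counted in the 500 bp around the TSS, a window not placed by summits, in members grouped by whether they held a summit. A KLF core was in 14.1% (12.7 to 15.5) of members with a summit in at least 1 list and 7.23% (6.78 to 7.71) of members with none. For the GC box the shares were 14.5% and 1.87%, and for the CG run 16.7% and 1.78%. The ARE core was in 22.4% (20.8 to 24.1) against 17.6% (17.0 to 18.3). The AP-1 word ran the other way, with 7.81% (6.76 to 8.96) against 11.1% (10.5 to 11.6). Each word ran in the same direction at protein-coding TSSs with and without a summit. There the KLF core was in 15.1% against 9.24%, the GC box in 32.8% against 8.05% and the CG run in 37.5% against 8.12%. The ARE core was in 21.7% against 17.8% and the AP-1 word in 4.14% against 8.91%. Members in no list were CpG-rich in only 3.26%, against 8.54% of all members, and the part of CpG content in these word shares was not tested.

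In the 2 long lists the median summit lay somewhat farther from the TSS than at protein-coding genes. In WT control the median was lower, but the share within 250 bp was alike, 51.4% (34.4 to 68.1) against 52.3% (43.4 to 61.1). The median distance at members was 166 bp in WT control (37 summit-TSS pairs), 338.5 bp in WT As3+ (1408 pairs) and 379 bp in Nrf2 KO control (2720 pairs), against 239, 296 and 338 bp at protein-coding TSSs. Summits upstream of the TSS made up 46.2% (43.6 to 48.9) of pairs in WT As3+ and 46.5% (44.7 to 48.4) in Nrf2 KO control. At protein-coding TSSs, whose summits leaned downstream, the shares were 37.2% (36.3 to 38.1) and 38.5% (37.7 to 39.2). The other lncRNAs had median distances of 341 and 382 bp in these 2 lists, close to those at members. Their upstream shares, 53.6% (51.8 to 55.5) and 53.1% (51.5 to 54.7), were above those at members. In WT control their median distance was 332 bp (33 pairs). Peaks at members had a median width of 322 against 372 bp at protein-coding TSSs in WT As3+ and 297 against 385 bp in Nrf2 KO control, but 269 against 266 bp in WT control.

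**Figure D4:**
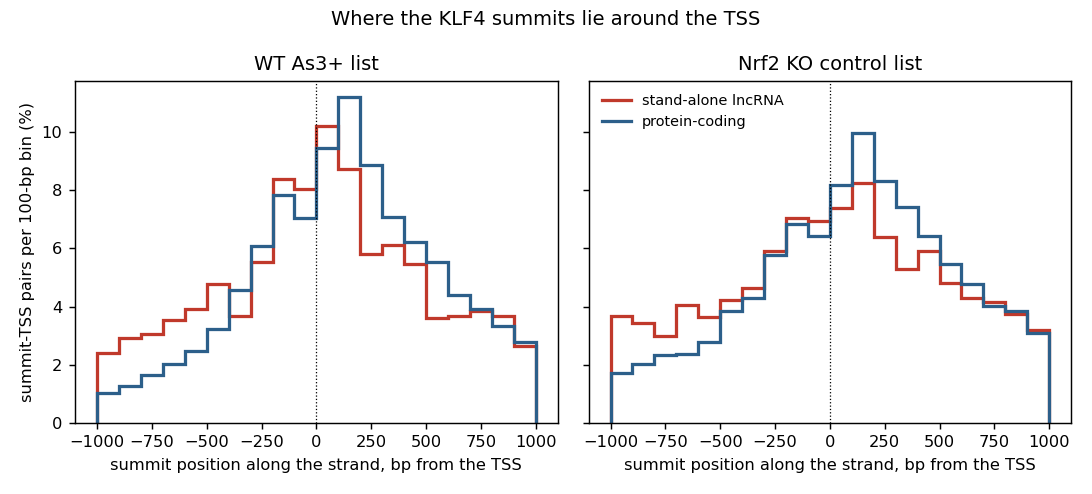
Position of KLF4 summits along the strand of the gene, in bp from the TSS, as percent of summit-TSS pairs per 100-bp bin, for stand-alone lncRNAs (red) and protein-coding genes (blue) in the WT As3+ list (left) and the Nrf2 KO control list (right). Protein-coding summits lean downstream, with 37.2% and 38.5% upstream, whereas 46.2% and 46.5% of member summits lie upstream. The other lncRNAs, not drawn, have 53.6% and 53.1% upstream.

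Members nearer a protein-coding TSS held a summit more often. At 5 to 10 kb 15.1% (13.1 to 17.3) of 1156 members did in WT As3+ and 25.2% (22.7 to 27.8) in Nrf2 KO control, at 50 to 100 kb 8.05% and 15.3%, and beyond 250 kb 1.64% (1.2 to 2.19) and 4.18% (3.47 to 5.0) of 2748. The share with a CpG-rich start fell along the same classes, from 13.2% to 8.66% and 4.44%, and its part in this gradient was not tested. The summit state of the nearest protein-coding TSS differed less: in WT As3+ it held a summit for 47.9% (44.9 to 50.8) of members with one and 43.7% (42.8 to 44.5) of members without, and in Nrf2 KO control for 63.3% (61.2 to 65.3) and 56.1% (55.2 to 57.0).

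**Figure D5:**
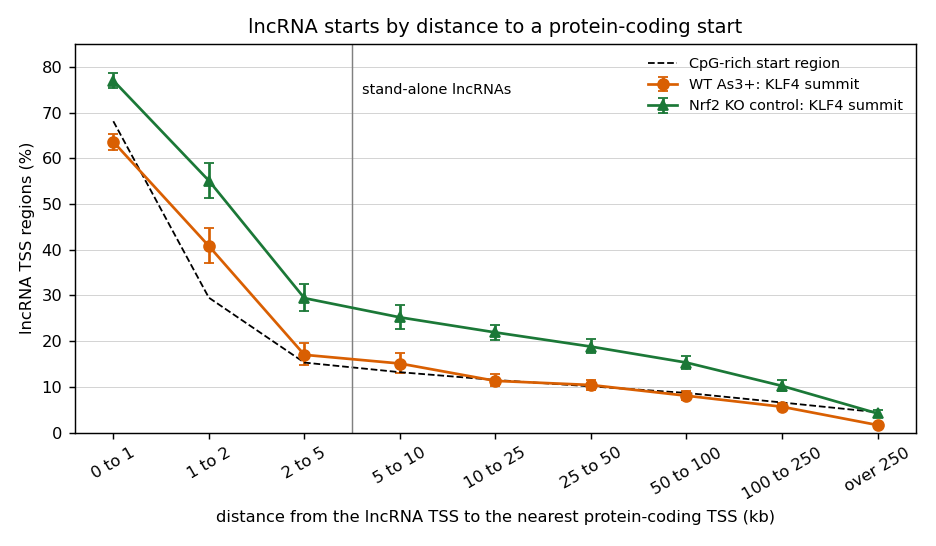
Percent of lncRNA TSS regions with a KLF4 summit in WT As3+ (circles) and Nrf2 KO control (triangles), with exact 95% intervals, by distance from the lncRNA TSS to the nearest protein-coding TSS in kb; the dashed line is the percent with a CpG-rich start and the vertical line separates other lncRNAs (left) from stand-alone ones (right). Shares fall from 15.1% and 25.2% at 5 to 10 kb to 1.64% and 4.18% beyond 250 kb.

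The rule uses the TSS of the gene record, and 2019 members had the start of another transcript of a protein-coding gene within 5 kb. Of these, 315 (15.6%) held a summit in WT As3+ and 525 (26.0%) in Nrf2 KO control, against 6.64% (6.21 to 7.09) and 12.9% (12.3 to 13.5) of the 12435 members without. Of the summits in member regions, 25.4% in WT As3+ and 18.2% in Nrf2 KO control were within 1 kb of such a start. By place, members between genes held a summit in 7.93% of cases in WT As3+ and 14.7% in Nrf2 KO control, members antisense inside a protein-coding gene in 9.5% and 16.8%, and members inside one on the same strand in 3.21% and 9.19%. Members with over 5 annotated transcripts held a summit in 15.5% and 24.0% of cases in the same lists, and members with 1 transcript in 6.28% and 12.6%. CpG-rich starts followed the same order, with 19.6% of the former and 6.03% of the latter, and their part in the difference was not tested.

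Some members share a start region, so genes are not independent. Merging overlapping regions left 13796, and 1021 of these held a summit in WT As3+ and 1947 in Nrf2 KO control. Of 220 pairs of members that start within 1 kb of each other and run apart (divergent), 52 (23.6%) shared a summit in WT As3+ and 72 (32.7%) in Nrf2 KO control. The shares were similar for 117 pairs on the same strand, 22.2% and 32.5%, and for 144 convergent pairs, 28.5% and 41.7%.

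The lists also differed by chromosome. In Nrf2 KO control members of chromosome 20 held a summit most often, in 28.7% (24.1 to 33.7) of 355 cases, and in WT As3+ their share was 10.4% (7.45 to 14.1). In WT As3+ members of chromosome 22 were highest, at 13.9% (10.4 to 18.0), and in Nrf2 KO control they held a summit in 24.0%. Members of chromosome 4 were lowest in both lists, at 3.36% and 6.58%. Of the members of chromosome 20, 6.76% had a CpG-rich start, against 8.54% of all members. The CpG-rich share was 9.83% on chromosome 22 and 4.62% on chromosome 4, and its part in these differences was not tested. Protein-coding TSSs of chromosome 20 were also the most often marked in Nrf2 KO control, at 71.8%, and held a summit in 52.6% in WT As3+. In WT As3+ and Nrf2 KO control, those of chromosome 22 held one in 56.2% and 67.8%, and those of chromosome 4 in 43.1% and 53.0%.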

How the data were processed

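KLF4 ChIP-seq peak lists were used from 4 libraries, 1 per condition. Per the labels and the study's methods, chromatin was fixed with formaldehyde, 75-nt reads were sequenced on a NextSeq 500 and mapped with BWA to GRCh38/hg38, and the submitters' processing notes name bcl2fastq 2.17. The peak caller is not given in the sources used here. In the narrowPeak files as deposited by the authors, each peak has a fold enrichment over background at its summit, with its −log10 p and −log10 q. The deposited score was 10 times the −log10 q rounded down, in every peak of 3 of the lists. The lowest −log10 q was 1.03, 1.0, 1.02 and 1.01. Lists hold only peaks above such a minimum, so a missing summit is no measure of absence. The histone-mark libraries and the inputs were not used here.

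Gene starts came from GENCODE 44 (Ensembl 110) on the same build. Peaks of chromosomes 1 to 22 and X were assigned to a TSS by their summit (Python 3.11.15, numpy 2.4.6, pandas 2.3.3, pysam 0.24.0, samtools 1.23.1, matplotlib 3.10.9). Fragments over a summit and the local background were solved from the listed fold and p under a Poisson model with 1 pseudo-fragment, and the functions were tested on simulated data. Exact Clopper-Pearson 95% intervals (scipy 1.17.1) treat each TSS as 1 trial and cover counting error only; no test between libraries was possible. Members and gene lists were chosen with earlier results of these data known. Members named were those of the lncRNA list, those with a summit in Nrf2 KO As3+ or in all 4 lists, the 10 strongest by −log10 p in WT As3+, the 5 strongest in WT control and in Nrf2 KO control, and the 3 strongest marked in WT As3+ alone or in Nrf2 KO control alone. Alternatives were the region width, the stand-alone distance, the starts used, the q threshold, the 130 strongest peaks of each list, peak overlap, merged regions, the CpG definition and the motif window.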

Additional observations from a re-analysis of the deposited data

Results flagged for a closer look

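The share of members with a KLF4 summit moved in opposite directions with As3+ in the WT and Nrf2 KO libraries. In WT it was 7.64 percentage points higher with As3+ (0.256% against 7.89%), and in Nrf2 KO the change was -14.7 percentage points (14.7% against 0.0138%). Protein-coding TSSs moved the same way, by 45.4 and -59.7 percentage points, as did the length of the lists, from 751 to 29866 peaks in WT and from 76521 to 130 in Nrf2 KO. With 1 library per condition the difference was not tested.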

How the results depend on the processing

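The order of the 4 lists, and the lower share of members than of protein-coding TSSs, rest on 1 library per condition, and depth is unknown. No paired analysis was possible because each condition has 1 library, and for the same reason no replicate could be left out. The share of members with a summit in WT control, WT As3+ and Nrf2 KO control was 0.18%, 5.99% and 10.6% with 500 bp on either side of the TSS and 0.401%, 9.94% and 19.4% with 2 kb. It was 7.26% and 13.8% in the latter lists with no protein-coding TSS within 10 kb, and 6.64% and 12.9% with no start of any protein-coding gene's transcript within 5 kb, where Nrf2 KO As3+ fell to 0.0%. Counting any overlap of the peak gave 8.39% and 15.7%, and merged regions gave 7.4% in WT As3+. Keeping peaks whose −log10 q reached 5 gave 0.166%, 3.69% and 4.91% (0.31%, 24.5% and 32.7% of protein-coding TSSs), with 517 members in place of 1108 marked in WT only with As3+, 708 in place of 2125 in Nrf2 KO only without, and 290 in place of 877 in both long lists. With the 130 strongest peaks of each list the shares were 0.0415%, 0.0761% and 0.0484%, with Nrf2 KO As3+ at 0.0138%. These were 6, 11, 7 and 2 members, too few to order the lists. At protein-coding TSSs the same setting gave 0.0951%, 0.175%, 0.401% and 0.175% in the same order, with Nrf2 KO control highest. With a CpG-rich start set at 50% GC and a ratio of 0.6, the CpG-rich share of marked members rose from 49.6% to 56.4% in WT As3+ and from 36.6% to 42.7% in Nrf2 KO control. In 100-bp windows word shares at members were lower, for the KLF core 3.12%, 5.34% and 5.11% and for AP-1 9.38%, 1.75% and 1.16% in WT control, WT As3+ and Nrf2 KO control. AP-1 stayed above its share at protein-coding TSSs (2.56%, 0.727% and 0.635%). Its intervals overlapped in WT control (1.98 to 25.0 against 0.532 to 7.31) and met at 0.777% in Nrf2 KO control. The intervals of the GC box in WT As3+, 5.34% against 6.74%, also overlapped.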
